A study of Mus musculus with 18 samples.

Results

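This report describes 10 genes of tumour necrosis factor (TNF) signalling in the liver of mice given IL-1β: the ligand gene Tnf, the receptor genes Tnfrsf1a, Tnfrsf1b and Fas, the adaptor genes Traf1 and Traf2, the ubiquitin ligase genes Birc2 and Birc3, the kinase gene Ripk1 and the caspase-8 inhibitor gene Cflar. They were chosen by symbol, and all 10 were found among the 21018 genes listed in at least 1 of the 3 count tables. The mice were 12-week old males of the C57/B6J strain. Livers were taken 4 h after an injection of IL-1β at 20 µg/Kg (mice I9579, I9582 and I9583) or of saline (mice U9574, U9575 and U9576), with no genetic change or other agent in either group. RNA of each of the 6 mice entered 3 library kits. The study made its Pico libraries more than once, and the labels do not tell which of these runs the deposited Pico counts hold. The Pico kit starts from minute amounts of total RNA and keeps the strand of each read. The V4 kit also starts from minute amounts of total RNA, with poly(A) selection, and loses the strand. The TruSeq kit takes far more total RNA, with poly(A) selection, and keeps the strand.

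TNF is a cytokine made above all by macrophages and other immune cells. Its receptor TNFR1 (Tnfrsf1a) carries a death domain and is found on most cells, whereas TNFR2 (Tnfrsf1b) lacks one and is best known from immune and endothelial cells. Ligand-bound TNFR1 gathers RIPK1, TRAF2 and the ubiquitin ligases cIAP1 (Birc2) and cIAP2 (Birc3) into a complex that activates NF-κB. When that complex fails, RIPK1 and caspase-8 can start cell death, which the product of Cflar, cFLIP, holds back. Fas is a death receptor to which hepatocytes are known to be sensitive. TRAF1 is an adaptor that binds TRAF2 and the cIAPs.

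The 4 members whose promoters held a STAT consensus (TTCNNNGAA, which reads the same on both strands) are printed first, with each match in capitals. They are Tnfrsf1a, Tnfrsf1b, Fas and Ripk1. The windows are RefSeq promoters of GRCm38.p6, with 250 bases before and 50 after the start of transcription, and run 5′ to 3′ on the strand of the gene. They were searched on both strands for 3 motifs. The first bases of the matches lay 244 bases before the start in Tnfrsf1a, 181 in Tnfrsf1b, 93 in Fas, and 108 and 11 in the second of the Ripk1 promoters.
Tnfrsf1a promoter, chr6:125349473-125349772, plus strand: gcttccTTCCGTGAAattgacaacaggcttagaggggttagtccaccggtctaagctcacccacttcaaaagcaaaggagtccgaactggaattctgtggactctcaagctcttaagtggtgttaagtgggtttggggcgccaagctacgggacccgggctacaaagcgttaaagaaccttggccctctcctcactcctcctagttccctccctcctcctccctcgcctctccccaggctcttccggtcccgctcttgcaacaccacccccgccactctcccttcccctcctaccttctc
Tnfrsf1b promoter, chr4:145246821-145247120, minus strand: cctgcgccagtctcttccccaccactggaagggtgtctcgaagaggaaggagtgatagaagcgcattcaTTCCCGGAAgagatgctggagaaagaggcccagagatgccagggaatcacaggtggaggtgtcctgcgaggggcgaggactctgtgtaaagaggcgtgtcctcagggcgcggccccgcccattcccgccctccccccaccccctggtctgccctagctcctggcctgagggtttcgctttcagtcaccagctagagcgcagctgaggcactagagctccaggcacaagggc
Fas promoter, chr19:34290409-34290708, plus strand: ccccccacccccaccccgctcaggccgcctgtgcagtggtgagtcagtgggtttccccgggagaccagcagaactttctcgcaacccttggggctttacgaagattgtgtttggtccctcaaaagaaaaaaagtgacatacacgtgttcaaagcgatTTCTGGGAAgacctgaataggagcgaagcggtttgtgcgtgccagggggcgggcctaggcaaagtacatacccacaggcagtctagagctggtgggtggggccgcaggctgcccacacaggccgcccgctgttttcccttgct
Ripk1 promoter, chr13:34002624-34002923, plus strand: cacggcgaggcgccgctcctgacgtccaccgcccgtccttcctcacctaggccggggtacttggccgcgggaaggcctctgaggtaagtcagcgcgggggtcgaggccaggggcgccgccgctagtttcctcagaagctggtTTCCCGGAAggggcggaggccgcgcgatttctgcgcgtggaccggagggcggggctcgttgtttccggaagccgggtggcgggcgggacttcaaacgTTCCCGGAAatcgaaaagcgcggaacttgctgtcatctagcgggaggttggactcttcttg

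Of all 32851 promoters of this length, 8.30% held the STAT consensus. Counted per gene, it was 8.65% of the 11462 TruSeq genes with a promoter here, and 10.2% of the 1615 of them called higher. The NF-κB consensus, searched by its name's usual letters, was found in none of the 12 promoters of the 10 members and in 8.46% of all promoters. Per gene it was found in 12.3% of the same TruSeq genes and 12.4% of those called higher. Its absence from the members says only that these letters are not in these windows. The AP-1 consensus TGANTCA was found in 1 member, Fas, 211 bases before the start, and in 7.81% of all promoters. Per gene the shares were 7.11% and 8.05% of those called higher. These motif counts are a description. They were examined with the responses known and were not tested.

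The values behind the results are counts of reads per gene, with 3 mice per group throughout. A Pico library held 4024632 to 4134070 gene counts, fewer than the 12013453 to 12352473 of V4 and the 12348864 to 12858237 of TruSeq. Hepatocyte markers summed to 39657 to 110778 CPM (counts scaled to one common library total) over the 18 libraries, and T and B cell markers to at most 4.95 CPM. A gene was called when its Benjamini-Hochberg adjusted p from limma-voom, taken over all genes of the kit, was under 0.05. Input and chemistry changed with the kit, and TruSeq was also read on another sequencer and with shorter reads than Pico and V4. The paper credits its TruSeq experiment to an earlier study and had more than a single TruSeq run of these samples. The labels do not tell which run the TruSeq counts hold. The effects of what changed together cannot be told apart.

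Most of these genes were higher after IL-1β. In TruSeq 8 of the 10 members were called higher, where 12.3% of all 19424 genes were. In Pico 6 members were called higher against 6.78% of 18108 genes, and in V4 2 members against 3.6% of 18051 genes. No member was called lower in any kit, where 21.8% of genes in TruSeq, 10.8% in Pico and 7.41% in V4 were. All libraries of the IL-1β mice exceeded all those of the saline mice in 8 members in TruSeq, 6 in Pico and 4 in V4, where this held for 17.1%, 12.6% and 9.09% of all genes. The largest rises were those of the death receptor gene Fas and of Tnfrsf1a, which were called in all 3 kits, while Tnf and Traf1 stayed at a few reads.

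**Figure D1:**
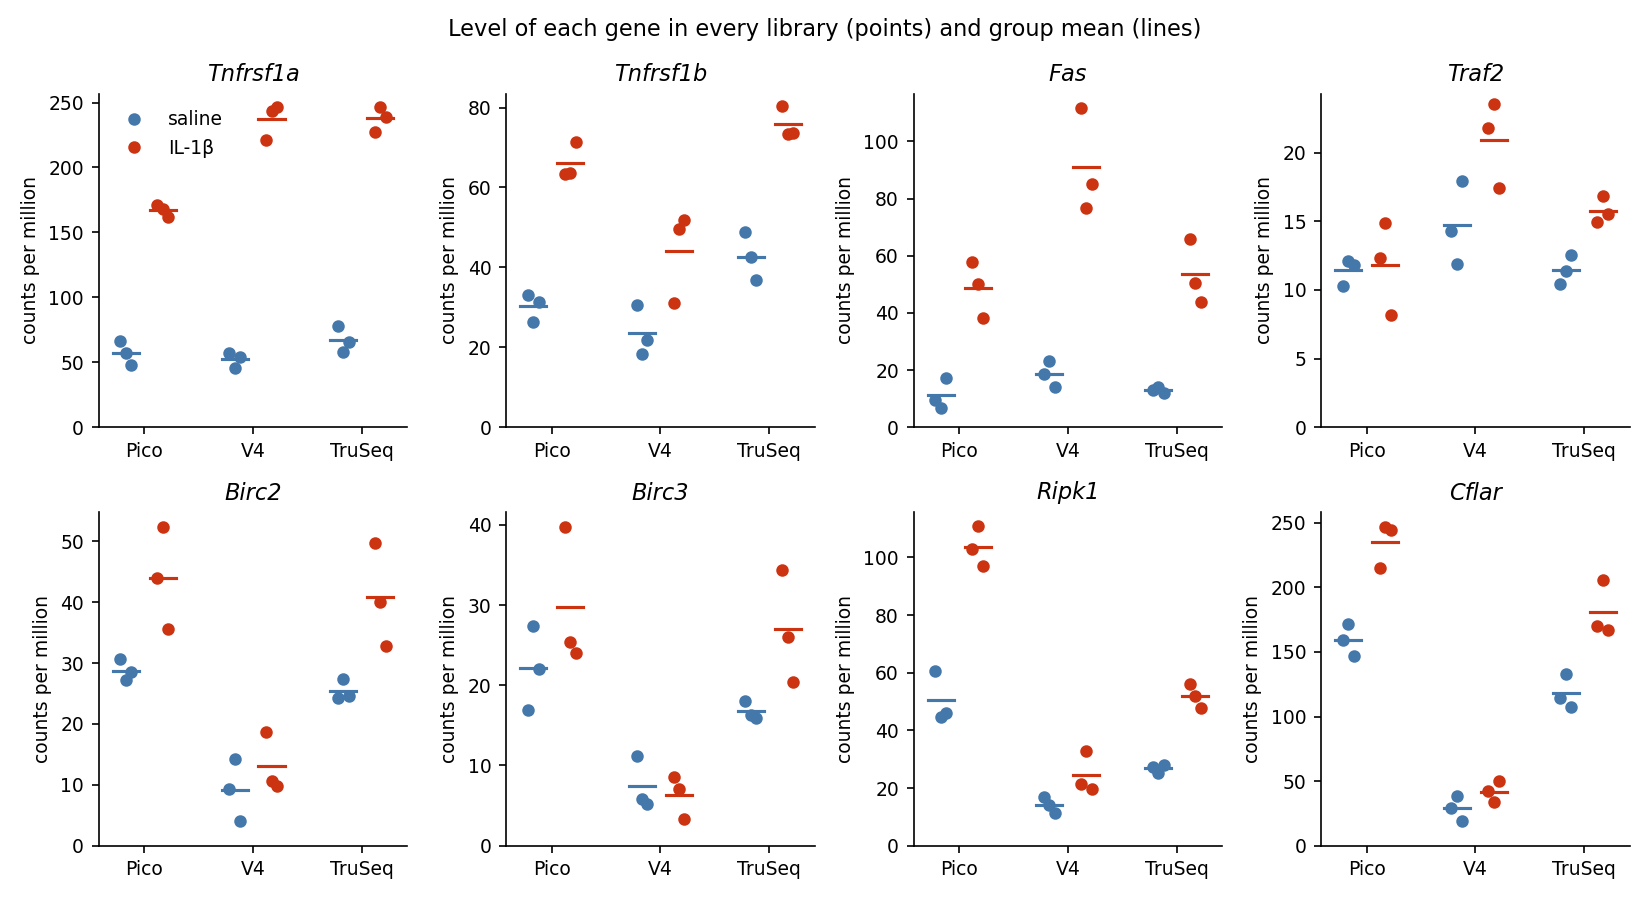
CPM (vertical axes, each from 0) of the 8 members with 20 or more counts on average in every kit, by kit, in saline (blue) and IL-1β (red) mice. Points are libraries and lines are group means of 3 mice. In Tnfrsf1a and Fas the 2 colours are apart in every kit, while in Birc3 and Traf2 they are apart in TruSeq alone.

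The ligand gene itself was near the limit of detection. Tnf (ENSMUSG00000024401, mm9 chr17:35336326-35338952, minus strand) had 2, 6 and 0 counts in the IL-1β mice and 8, 0 and 0 in the saline mice in Pico. It had 2, 0 and 0 against 3, 0 and 0 counts in V4, and 4, 2 and 1 against 0, 4 and 1 in TruSeq. The groups overlapped in every kit and the summed counts were 8 against 8, 2 against 3 and 7 against 5. At 3 counts per library as the floor, a level of up to 0.745 CPM in Pico, 0.250 CPM in V4 and 0.243 CPM in TruSeq cannot be told from 0, so no fold is given and a difference in Tnf was not detectable at this depth.

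Tnfrsf1a (ENSMUSG00000030341, mm9 chr6:125299380-125312502, plus strand) was the most abundant member per length. In TruSeq it had 2824, 3049 and 2965 counts in I9579, I9582 and I9583 and 985, 738 and 842 in U9574, U9575 and U9576. The V4 counts were 2691, 2939 and 2972 against 687, 552 and 666, and those of Pico 693, 677 and 653 against 271, 236 and 198. Every IL-1β library lay far above every saline library of its kit, and the 3 IL-1β libraries lay close together. The fold was 3.57 in TruSeq (log2 fold change 1.84, SE 0.12, adjusted p = 7.404e-06 by limma-voom), 4.55 in V4 (2.19, SE 0.16, adjusted p = 2.296e-05) and 2.94 in Pico (1.56, SE 0.14, adjusted p = 1.35e-06).

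Fas (ENSMUSG00000024778, mm9 chr19:34365149-34402260, plus strand) rose from a lower level. Its TruSeq counts were 818, 625 and 545 in the IL-1β mice and 163, 181 and 153 in the saline mice. In V4 they were 1358, 925 and 1025 against 225, 280 and 173, and in Pico 234, 202 and 155 against 39, 28 and 71. The groups did not overlap in any kit, and I9579 was the highest mouse in all 3. The fold was 4.06 in TruSeq (log2 fold change 2.02, SE 0.17, adjusted p = 2.899e-05 by limma-voom), 4.93 in V4 (2.30, SE 0.25, adjusted p = 0.0002973) and 4.59 in Pico (2.20, SE 0.31, adjusted p = 8.819e-05).

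Tnfrsf1b (ENSMUSG00000028599, mm9 chr4:144803366-144836773, minus strand) had 999, 906 and 915 counts in the IL-1β mice and 617, 545 and 473 in the saline mice in TruSeq. In Pico the counts were 256, 256 and 288 against 135, 108 and 130, and in V4 379, 597 and 626 against 368, 221 and 269. The groups did not overlap, but in V4 the lowest IL-1β mouse, I9579, was only just above the highest saline mouse, U9574. It rose 1.79-fold in TruSeq (log2 fold change 0.84, SE 0.12, adjusted p = 0.0005865 by limma-voom) and 2.19-fold in Pico (1.13, SE 0.18, adjusted p = 0.0002307). The V4 value of 0.90 (SE 0.28, adjusted p = 0.06007) was not called, though it was with TMM scaling factors (adjusted p = 0.03947). Of the 6 fits that left out 1 mouse, 5 did not call it, with an adjusted p of up to 0.2186. Only the fit without mouse I9579 did (log2 fold change 1.14, adjusted p = 0.03238).

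Relative to Tnfrsf1b, there was more Tnfrsf1a RNA in every IL-1β library than in any saline library of its kit. Per exonic base, TruSeq held 4.62 ± 0.41 (SD, n = 3) reads of Tnfrsf1a for each read of Tnfrsf1b in the IL-1β mice and 2.32 ± 0.31 in the saline mice. The ratio was 8.22 ± 1.93 against 3.35 ± 0.53 in V4 and 3.73 ± 0.35 against 2.80 ± 0.50 in Pico. The groups did not overlap in any kit, with an exact two-sided permutation p = 0.1 in each, which is the smallest that 3 against 3 mice allow (0.3 after adjustment over the 15 ratios examined). The lowest IL-1β value in Pico was 3.33 and the highest saline value 3.21, so there the gap was narrow. The ratio of Fas to Tnfrsf1a was 0.326 ± 0.081 against 0.285 ± 0.061 in TruSeq, within the spread (exact permutation p = 0.5, adjusted 0.75).

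**Figure D2:**
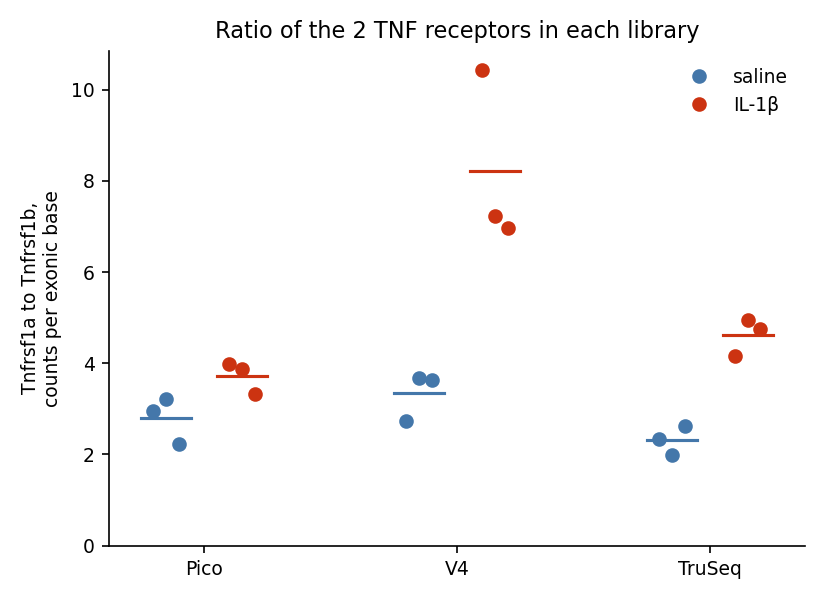
Ratio of Tnfrsf1a to Tnfrsf1b in counts per exonic base (vertical axis, from 0) by kit, for saline (blue) and IL-1β (red) libraries with group means as lines. All IL-1β libraries lie above the saline libraries of their kit, from 4.15 to 4.95 against 1.99 to 2.62 in TruSeq.

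The adaptor genes differed in level. Traf1 (ENSMUSG00000026875, mm9 chr2:34797270-34817292, minus strand) had 0 counts in all 3 IL-1β libraries of Pico and V4. Its saline counts were 0, 0 and 2 in Pico and 8, 1 and 0 in V4, and in TruSeq it had 6, 1 and 5 against 13, 5 and 4 counts. The groups overlapped in each kit, and a difference was not detectable at this depth. Traf2 (ENSMUSG00000026942, mm9 chr2:25373502-25402460, minus strand) had 186, 208 and 193 counts in the IL-1β mice and 132, 146 and 161 in the saline mice in TruSeq.

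That TruSeq difference in Traf2 was 1.38-fold (log2 fold change 0.46, SE 0.13, adjusted p = 0.01926 by limma-voom) and was the smallest called among the members. The call was lost without mouse I9582 (adjusted p = 0.06238), U9574 (0.05772) or U9575 (0.05053). The V4 counts of Traf2 were 265, 284 and 210 against 172, 144 and 222, and those of Pico 50, 60 and 33 against 42, 50 and 49. Saline mouse U9576 lay above IL-1β mouse I9583 in V4, and in Pico I9583 was the lowest of all 6. Neither was called, with log2 fold changes of 0.51 (95% interval -0.06 to 1.09, adjusted p = 0.2574) in V4 and 0.01 (-0.65 to 0.66, adjusted p = 0.987) in Pico by limma-voom.

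Both ubiquitin ligase genes lie side by side on mouse chromosome 9 and showed smaller and less even differences. Birc2 (ENSMUSG00000057367, mm9 chr9:7818236-7835255, minus strand) had 618, 494 and 408 counts in the IL-1β mice and 307, 351 and 317 in the saline mice in TruSeq. In Pico the counts were 178, 211 and 144 against 125, 112 and 118, and in V4 228, 129 and 119 against 111, 172 and 50. The groups were apart in TruSeq and Pico and overlapped in V4, where U9575 exceeded 2 of the IL-1β mice. Birc2 rose 1.59-fold in TruSeq (log2 fold change 0.66, SE 0.15, adjusted p = 0.008324 by limma-voom) and 1.51-fold in Pico (0.60, SE 0.20, adjusted p = 0.04861). In V4 it was not called (0.64, 95% interval -0.35 to 1.62, adjusted p = 0.4435).

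With 5 mice in place of 6 the log2 fold change of Birc2 in Pico stayed between 0.46 and 0.74, but its call was lost without any mouse other than I9583. It was 0.59 without I9579 (adjusted p = 0.1336 by limma-voom), 0.46 without I9582 (0.1777), 0.64 without U9574 (0.09872), 0.55 without U9575 (0.1206) and 0.59 without U9576 (0.1198). In TruSeq it was 0.63 without U9574 (adjusted p = 0.0543) and 0.64 without U9576 (0.05021), where the call was lost.

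Birc3 (ENSMUSG00000032000, mm9 chr9:7848699-7873186, minus strand) had 427, 322 and 254 counts against 229, 209 and 204 in TruSeq. The Pico counts were 161, 102 and 97 in the IL-1β mice and 69, 113 and 91 in the saline mice, and those of V4 105, 85 and 40 against 135, 71 and 64. The groups were apart in TruSeq alone. There the difference was 1.58-fold (log2 fold change 0.66, SE 0.18, adjusted p = 0.01974 by limma-voom), and of the fits that left out 1 mouse only the fit without I9583 kept the call. Without I9579, I9582, U9574, U9575 or U9576 the adjusted p was 0.05727, 0.07118, 0.0655, 0.08303 and 0.09484. Birc3 was not called in Pico (0.41, 95% interval -0.12 to 0.95, adjusted p = 0.3144) or in V4 (-0.25, 95% interval -1.25 to 0.76, adjusted p = 0.7634). Of its 50-base stretches 2.46% also occur in other genes, and of those of Birc2 2.11% occur in Birc3, so few of their reads could be shared.

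In TruSeq the ratio of Birc2 to Birc3 per exonic base was 2.45 ± 0.13 in the IL-1β mice and 2.44 ± 0.27 in the saline mice (exact permutation p = 1.0). I9579 had the most and I9583 the least Birc3 of the IL-1β mice in all 3 kits, and I9583 also had the least Birc2. Of the 8960 genes that averaged 20 or more counts in every kit, 24.6% had the same lowest IL-1β mouse in all 3 kits.

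Ripk1 (ENSMUSG00000021408, mm9 chr13:34094232-34127039, plus strand) had 697, 642 and 593 counts in the IL-1β mice and 345, 323 and 358 in the saline mice in TruSeq. In Pico the counts were 417, 446 and 392 against 247, 184 and 191, and in V4 259, 396 and 238 against 202, 171 and 142. The groups did not overlap in any kit, with the narrowest gap in V4. Ripk1 rose 1.94-fold in TruSeq (log2 fold change 0.95, SE 0.11, adjusted p = 0.0001547 by limma-voom) and 2.07-fold in Pico (1.05, SE 0.16, adjusted p = 0.0001653), and was not called in V4 (0.78, SE 0.28, adjusted p = 0.1111). Its exons share 241 bases (3.93% of 6138) with Serpinb6a on the opposite strand, which had at most 121 counts in V4, where reads of both strands cannot be told apart. They also share 2108 bases (34.3%) with Gm17084 on the same strand, which had at most 4 counts in any library.

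Cflar (ENSMUSG00000026031, mm9 chr1:58768352-58815728, plus strand) had 2115, 2536 and 2074 counts in the IL-1β mice and 1443, 1703 and 1384 in the saline mice in TruSeq. In Pico the counts were 871, 994 and 986 against 651, 707 and 607, and in V4 511, 407 and 601 against 351, 462 and 236. The groups were apart in both stranded kits, and in V4 saline mouse U9575 exceeded I9582. Cflar rose 1.53-fold in TruSeq (log2 fold change 0.61, SE 0.12, adjusted p = 0.003195 by limma-voom) and 1.48-fold in Pico (0.56, SE 0.11, adjusted p = 0.002206). The V4 value was 0.58 (SE 0.27, adjusted p = 0.2167) and was not called.

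**Figure D3:**
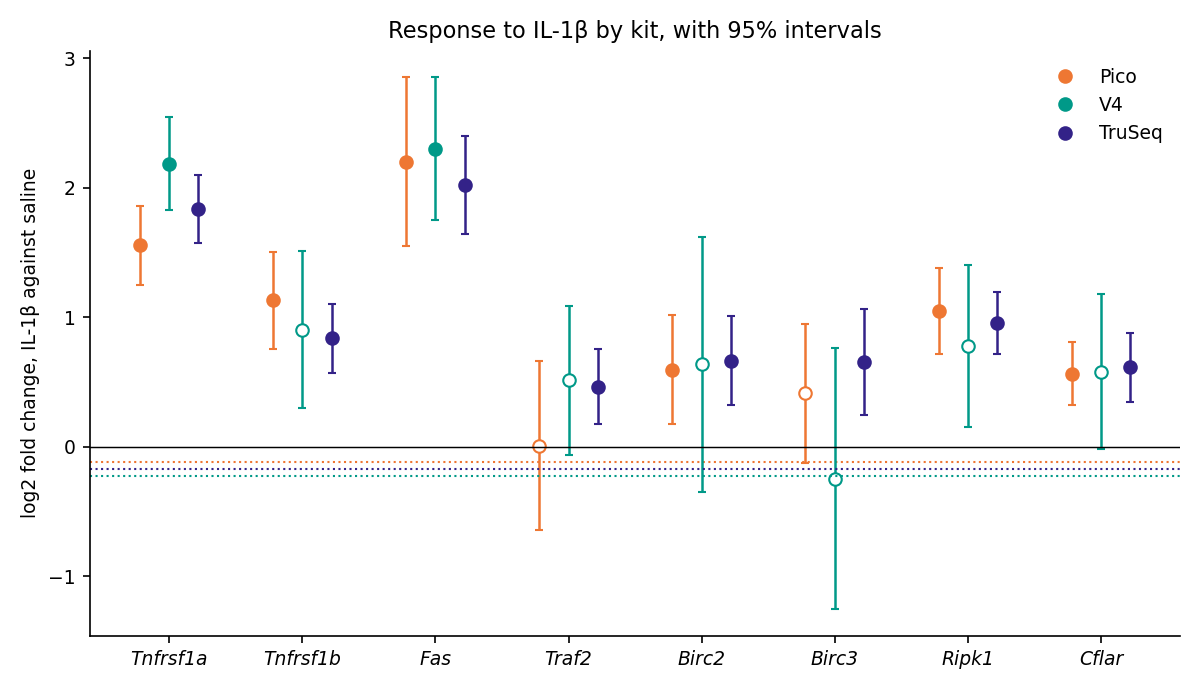
Log2 fold change of IL-1β against saline (vertical axis) for 8 members in Pico (orange), V4 (green) and TruSeq (indigo), with 95% intervals from limma-voom on 3 against 3 mice. Filled points were called, open points were not, and dotted lines are the medians of all genes of each kit, from -0.22 to -0.12.

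These values stand against a lowered background. Taking library totals as the scale, all genes of a kit had a median log2 fold change of -0.17 in TruSeq, -0.12 in Pico and -0.22 in V4, and of the genes called 36.0%, 38.6% and 32.7% were higher. With TMM factors, which assume that most genes do not change, these shares were 50.9%, 52.9% and 49.7%, and the members' values moved up by 0.16, 0.13 and 0.17. Relative to the median of its kit, Fas was at 2.20 and Traf2 at 0.64 in TruSeq, and Birc3 at -0.02 in V4. With these factors 8 members were called in TruSeq, 6 in Pico and 3 in V4, against 16.7%, 9.16% and 4.79% of all genes called higher.

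The response of a member was not shown to differ between kits. Over the 3 pairs of kits 30 differences in response were tested, and none had an adjusted p under 0.05 in the limma-voom interaction, where 0% of all genes did in each pair. DESeq2 called 4 genes in the first pair (Pico, TruSeq), 62 in the second (V4, TruSeq) and 14 in the third (Pico, V4), none of them a member. Unadjusted, 1 of the 30 had a p under 0.05, where 5.49% of all genes did in Pico against TruSeq and in Pico against V4, and 6.36% in V4 against TruSeq. It was the smaller response of Tnfrsf1a in Pico than in V4, a log2 difference of -0.63 (SE 0.22, 95% interval -1.09 to -0.17, adjusted p = 0.7218). With the mouse as a block, 3 of the 30 had an unadjusted p under 0.05 and none an adjusted p under 0.05, where 7.43% of all genes had such an unadjusted p in Pico against TruSeq, 7.37% in V4 against TruSeq and 6.23% in Pico against V4. These were Tnfrsf1a in Pico against V4 (-0.63, SE 0.19, adjusted p = 0.6253), Tnfrsf1a in V4 against TruSeq (0.35, SE 0.12, adjusted p = 0.5658) and Birc3 in V4 against TruSeq (-0.91, SE 0.36, adjusted p = 0.6295). Without the block, the difference in Birc3 between V4 and TruSeq was -0.90 with a 95% interval of -1.94 to 0.14 (adjusted p = 0.8584 by limma-voom), and that in Cflar was -0.04 with -0.66 to 0.58 (adjusted p = 0.9985).

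Levels of different genes were compared as CPM per kilobase of exon, with the exons of all annotated transcripts of a gene merged. For Traf2 these came to 5101 bases, while its protein-coding transcripts held 3062 different 50-base stretches. The order of neighbouring genes and the gaps between them thus depend on the length used, and other lengths were not tried. In the saline mice of TruSeq, Tnfrsf1a was highest at 25.8 ± 3.9 (SD, n = 3), followed by Cflar at 12.5 ± 1.4 and Tnfrsf1b at 11.2 ± 1.6, whose ranges overlapped. Birc2 at 8.13 ± 0.55 and Fas at 7.20 ± 0.62 also overlapped each other. Ripk1 at 4.36 ± 0.22, Birc3 at 3.35 ± 0.23 and Traf2 at 2.25 ± 0.21 were each apart from the next, and Traf1 and Tnf were at 0.113 and 0.079.

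In the IL-1β mice of TruSeq, Fas stood second. Its level was 29.7 ± 6.2 CPM per kilobase, after Tnfrsf1a at 91.5 ± 3.8 and before Tnfrsf1b at 19.9 ± 1.0 and Cflar at 19.1 ± 2.2, which overlapped each other. Birc2 followed at 13.1 ± 2.7, Ripk1 at 8.47 ± 0.68, Birc3 at 5.38 ± 1.40 and Traf2 at 3.10 ± 0.19. Tnfrsf1a was first in both treatments of all 3 kits, while the place of Cflar in saline mice was next in Pico and TruSeq but below Fas and Tnfrsf1b in V4.

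Members differed in the ratio of their CPM between kits. Within a mouse, Cflar had a log2 ratio of V4 to TruSeq CPM of -2.10 ± 0.36 (SD, n = 6 mice), Birc3 of -1.70 ± 0.63 and Birc2 of -1.66 ± 0.56. Ripk1 had -1.02 ± 0.33 and Tnfrsf1b -0.85 ± 0.36, and each of these genes was lower in V4 in 6 of 6 mice. The median over 8960 genes was -0.46. Counted from the lowest of these genes, Cflar stood at percentile 12.7, Birc3 at 19.8, Birc2 at 20.6, Ripk1 at 34.9 and Tnfrsf1b at 39.6. Fas at 0.63 ± 0.24 (percentile 80.5) and Traf2 at 0.37 ± 0.20 (73.5) were higher in V4 in 6 of 6 mice. In Pico against TruSeq, Ripk1 at 0.95 ± 0.16 and Cflar at 0.41 ± 0.10 were higher in 6 of 6 mice, and Tnfrsf1a at -0.37 ± 0.21 and Tnfrsf1b at -0.34 ± 0.24 lower in 6 of 6, with a median over genes of 0.02. Their percentiles were 90.0, 71.9, 27.3 and 28.6. The share of all genes that lay on the same side in 6 of 6 mice was not counted, so most of these values are not shown to be unusual. In V4 the mean of Birc3 was 83.3 counts and that of Birc2 135 counts, and the SEs of their responses were 0.46 and 0.45. Pico had means of 105.5 and 148 counts, with SEs of 0.25 and 0.20. The cause of the larger V4 SEs was not tested.

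**Figure D4:**
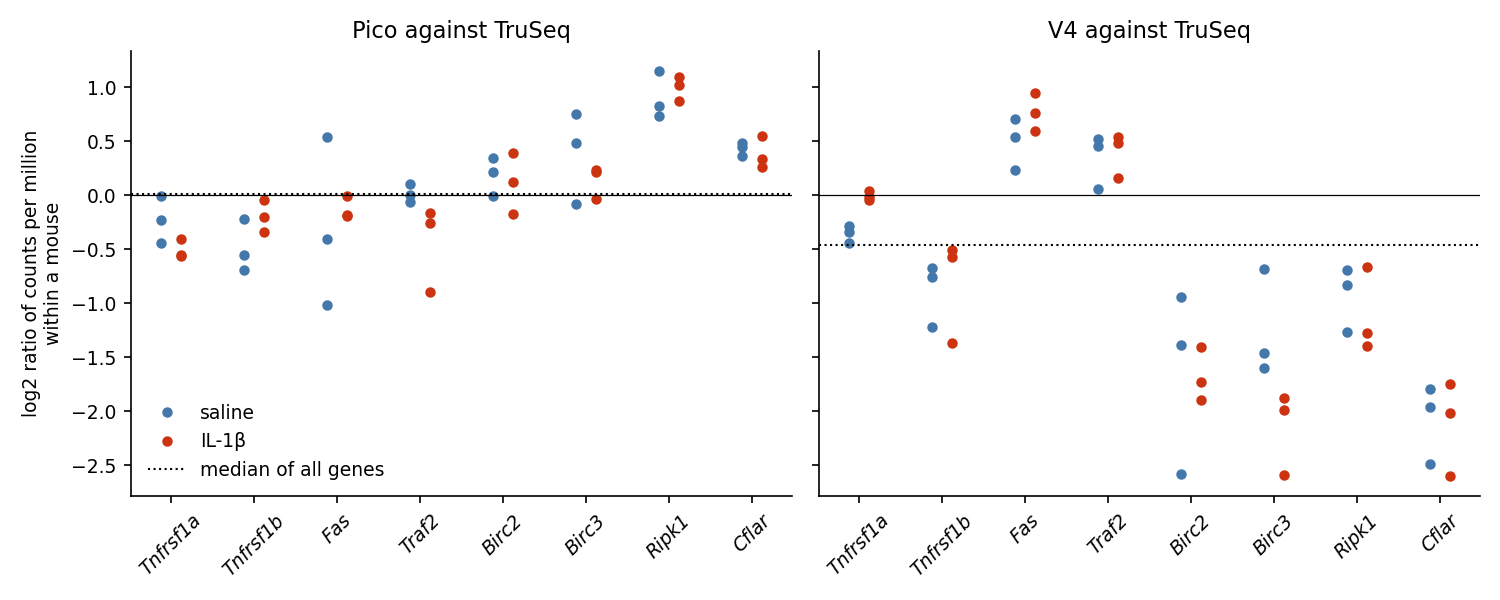
Log2 ratio of the CPM of 1 kit to TruSeq within each mouse (vertical axis) for 8 members, in saline (blue) and IL-1β (red) mice. Dotted lines are medians over 8960 genes (0.02 for Pico and -0.46 for V4), and Cflar, Birc2, Birc3, Ripk1 and Tnfrsf1b lie below that of V4 in every mouse.

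Cell type markers moved with the treatment too. In whole liver, fewer cells of a type and less RNA per cell cannot be told apart. Neutrophil markers without Lcn2, which hepatocytes also make in an acute-phase response, summed to 47.3 to 92.6 CPM in the IL-1β mice and 3.36 to 6.16 in the saline mice of TruSeq, and 6 of the 7 were apart. In Pico the sums were 42.0 to 58.9 against 0.971 to 5.15, and in V4 42.1 to 82.4 against 2.15 to 5.24, with Ly6g at 0 in both kits. Kupffer cell and macrophage markers summed to 77.4 to 115 CPM against 160 to 257 in TruSeq, with 5 of 9 apart and lower and 1, Marco, apart and higher (92.0 ± 22.5 against 39.0 ± 14.8 counts, adjusted p = 0.007297 by limma-voom). Endothelial markers summed to 90.2 to 116 against 171 to 195 CPM and hepatocyte markers to 65062 to 71337 against 93723 to 110778. Not all markers of these lists followed the sums: 5 of 7 endothelial markers were apart and lower, while Lyve1 (1.92-fold, adjusted p = 0.0004091) and Cdh5 (1.22-fold, adjusted p = 0.1206) were apart and higher, and 5 of 7 hepatocyte markers were apart and lower, while Hnf4a was 1.87-fold higher (adjusted p = 5.089e-05). The part of these shifts in the rises of Fas, Tnfrsf1b and the other members was not tested.

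Over the 18 libraries, centred within each kit, the pattern of Tnfrsf1a was most like those of 1200007C13Rik (Pearson r = 0.987 of log2 CPM + 1, 8960 genes), Ptpn1 (0.986) and Lcn2 (0.986). Among members Fas was its nearest, at 0.930. Fas was most like Nars (0.976), Apcs (0.976) and Cd14 (0.973), and Ripk1 like Sdc4 (0.972), Txnrd1 (0.964) and Gbp9 (0.963). Tnfrsf1b was most like Smek2 (0.951), Srpr (0.945) and Sat1 (0.943), Cflar like Plaa (0.954), Usp1 (0.951) and 1700024P16Rik (0.949), and Birc2 like Zfyve20 (0.937), Syncrip (0.896) and Heg1 (0.892). The values were lowest for Traf2, with Psmb10 (0.867), Spen (0.854) and Pgd (0.838), and for Birc3, with Spg20 (0.847), Ahr (0.831) and Tmem68 (0.817). These libraries share 6 mice and the treatment, so the values only describe likeness.

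Around the members, 98 further genes of the pathway were read in 8 lists. In TruSeq 29 of the 97 listed genes were called higher (29.9%, against 12.3% of all genes) and 18 lower (18.6%, against 21.8%). In Pico 17 of 92 were higher (18.5%, against 6.78% of all genes) and 9 lower (9.78%, against 10.8%), and in V4 11 of 92 were higher (11.96%, against 3.6%) and 8 lower (8.70%, against 7.41%). With TMM factors the counts were 33 and 15 in TruSeq, 21 and 9 in Pico and 15 and 8 in V4. The rule for names gave Tnfsf10, Tnfrsf9, Tnfrsf23, Tnfrsf19, Rhbdf2, Timp3, Traf5, Tnip1, Tnip2, Ikbke, Ripk2, Casp9, Bcl2a1b, Bcl2a1d and Bmf, and the other genes below were named after their values were seen.

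Of the 11 other ligand genes listed in TruSeq, 2 had a mean of at least 20 counts. Calls in TruSeq were 1 higher and 2 lower, where 12.3% of all genes were higher and 21.8% lower. Tnfsf10, which encodes TRAIL, fell in all 3 kits, from 98.7 ± 17.4 to 19.3 ± 2.1 counts in TruSeq (log2 fold change -2.27, SE 0.25, adjusted p = 0.0001429 by limma-voom), from 35.3 ± 12.7 to 7.33 ± 6.51 in Pico and from 23.0 ± 2.6 to 4.0 ± 6.1 in V4. The 1 ligand gene higher in TruSeq was Tnfsf14, at 19.3 ± 6.4 against 2.0 ± 1.7 counts, and Tnfsf12 was the other one lower (-0.66, adjusted p = 0.04063). With TMM factors Tnfsf12 was not called (-0.50, adjusted p = 0.1128) and Ltb was called higher (1.78, adjusted p = 0.03774), which gave 2 higher and 1 lower. Fasl, the ligand of Fas, was called higher in V4 alone, at a mean of 10 counts (SD 5.6) against 0 in all 3 saline mice, and had 1.33 ± 1.15 against 1.0 ± 1.0 counts in TruSeq.

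Of the 22 other receptor genes of the family 7 were called higher and 2 lower in TruSeq, where 12.3% of all genes were higher and 21.8% lower. In Pico 4 of 20 were higher and 1 lower, where 6.78% of all genes were higher and 10.8% lower. In V4 1 of 21 was higher and 2 were lower, where 3.6% of all genes were higher and 7.41% lower. In TruSeq Tnfrsf23, a decoy receptor gene, had 36.0 ± 7.8 against 6.33 ± 1.53 counts (log2 fold change 2.46, adjusted p = 0.0006592 by limma-voom), and Tnfrsf9, a costimulatory receptor gene of lymphocytes, 14.0 ± 7.9 against 1 count in each saline mouse. Both were also called higher in Pico but not in V4 (adjusted p = 0.1267 and 0.1068). Tnfrsf19 fell from 73.3 ± 7.6 to 15.3 ± 8.3 counts in TruSeq (-2.36, SE 0.37, adjusted p = 0.001047) and was called lower in all 3 kits. Tnfrsf12a, the receptor gene for TWEAK, had 279 ± 9 against 79.3 ± 12 counts and was called higher in all 3 kits.

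Genes of receptor shedding included rises and a fall. Rhbdf2, a partner of the TNF-releasing protease gene Adam17, had 191 ± 3 against 93.7 ± 9.3 counts in TruSeq (log2 fold change 1.07, SE 0.13, adjusted p = 0.0002723 by limma-voom), was called in V4 and was at 0.58 in Pico (adjusted p = 0.129). Adam17 itself had 428 ± 57 against 291 ± 36 counts (0.60, adjusted p = 0.00827), was called in Pico (0.57, adjusted p = 0.04416) and was at -0.15 in V4 (adjusted p = 0.8425). Rhbdf1 had 125 ± 13 against 63.7 ± 7.1, was called in V4 (1.43, adjusted p = 0.01224) and was at 0.49 in Pico (adjusted p = 0.5352). Timp3, an inhibitor of that protease, fell from 484 ± 27 to 189 ± 15 counts (-1.31, SE 0.12, adjusted p = 3.971e-05), was called lower in Pico and was at -1.05 in V4 (adjusted p = 0.1825).

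Of the 12 other adaptor and ubiquitin ligase genes 5 were called lower (Traf4, Traf5, Xiap, Fadd and Tradd) and 1 higher (Sharpin) in TruSeq, where 21.8% of all genes were lower and 12.3% higher, and with TMM factors 4 were lower. Xiap, the third of the inhibitor of apoptosis genes beside Birc2 and Birc3, fell from 1767 ± 197 to 835 ± 127 counts (log2 fold change -1.04, SE 0.13, adjusted p = 0.0003223 by limma-voom) and was called lower in all 3 kits. Traf5 fell from 40.0 ± 11.5 to 10.3 ± 2.9 counts in TruSeq (-1.86, adjusted p = 0.002674) and was not called in Pico (adjusted p = 0.0809) or V4 (0.06647). Tradd, the adaptor gene that links TNFR1 to RIPK1 and TRAF2, fell from 96.7 ± 6.1 to 44.3 ± 9.5 counts in TruSeq (-1.09, adjusted p = 0.001902). It was called lower in V4 (-1.56, adjusted p = 0.01372) and was not called in Pico (-0.96, adjusted p = 0.1795).

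No gene of the short deubiquitinase and kinase lists was called lower. Of 8 deubiquitinase genes and partners 4 were called higher and 0 lower in TruSeq, where 12.3% of all genes were higher and 21.8% lower. Among those higher were Tnip2 (231 ± 51 against 80.0 ± 13.1 counts, log2 fold change 1.56, SE 0.20, adjusted p = 0.000331 by limma-voom) and Tnip1 (227 ± 59 against 88.0 ± 9.2, 1.38, SE 0.21, adjusted p = 0.0008855), partners of A20 that were called in all 3 kits. Tnfaip3, which encodes A20, was at 0.66 (SE 0.29, adjusted p = 0.1092).

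Of 15 kinase complex genes 7 were called higher and 0 lower in TruSeq, where 12.3% of all genes were higher and 21.8% lower. Their median log2 fold change was 0.42 over the 14 with a mean of at least 20 counts, against -0.13 over 11529 such genes. Ikbke had 2906 ± 403 against 347 ± 75 counts (3.12, SE 0.16, adjusted p = 2.437e-06 by limma-voom), more than any member, and it rose in all 3 kits. Ripk2, a kinase gene of NOD signalling and a relative of Ripk1, had 308 ± 157 against 92.7 ± 14.0 counts (1.64, SE 0.38, adjusted p = 0.009008) and also rose in all 3. Mlkl, the effector gene of necroptosis, had 126 ± 25 against 42.0 ± 6.9 counts in TruSeq (1.60, adjusted p = 0.0005535). It was called in Pico (adjusted p = 0.01836) and was at 1.27 in V4 (adjusted p = 0.06702). Its activator gene Ripk3 had 7.67 ± 2.52 against 11.7 ± 2.3 counts in TruSeq and was not called.

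Downstream of the receptors, Apaf1, whose product activates caspase-9, was called higher in TruSeq, at 144 ± 26 against 42.3 ± 8.1 counts. Casp9, the initiator of the mitochondrial route, fell from 340.0 ± 40.1 to 102 ± 12 counts (log2 fold change -1.69, SE 0.15, adjusted p = 4.292e-05 by limma-voom) and was called lower in all 3 kits. Casp8, the target of cFLIP, was at 0.11 in TruSeq (SE 0.13, adjusted p = 0.5757).

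In the BCL2 family 5 genes were called higher and 5 lower of 15 in TruSeq, where 12.3% of all genes were higher and 21.8% lower. With TMM factors 6 were higher and 4 lower, where 16.7% of all genes were higher. Bcl2l1 had 1420 ± 95 against 393 ± 35 counts (log2 fold change 1.90, SE 0.11, adjusted p = 3.886e-06 by limma-voom) and rose in all 3 kits. Bmf fell from 228 ± 96 to 30.3 ± 1.2 counts (-2.77, SE 0.37, adjusted p = 0.0004455), also in all 3. Bcl2a1b and Bcl2a1d had 15.7 ± 3.1 against 3.33 ± 0.58 and 6.33 ± 0.58 against 1.33 ± 0.58 counts, and as near-identical copies that can share reads they are uncertain. The other genes lower were Bbc3, Bik, Bcl2l11 and Bcl2l2 (-0.38, adjusted p = 0.02215, not called with TMM factors). The other genes higher were Bax (0.705, adjusted p = 0.001574) and Bcl2a1a, at 8.0 ± 3.5 against 1.0 ± 1.0 counts. Bcl2a1a is a copy of the same kind and equally uncertain, so the calls of the Bcl2a1 genes may not be separate.

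**Figure D5:**
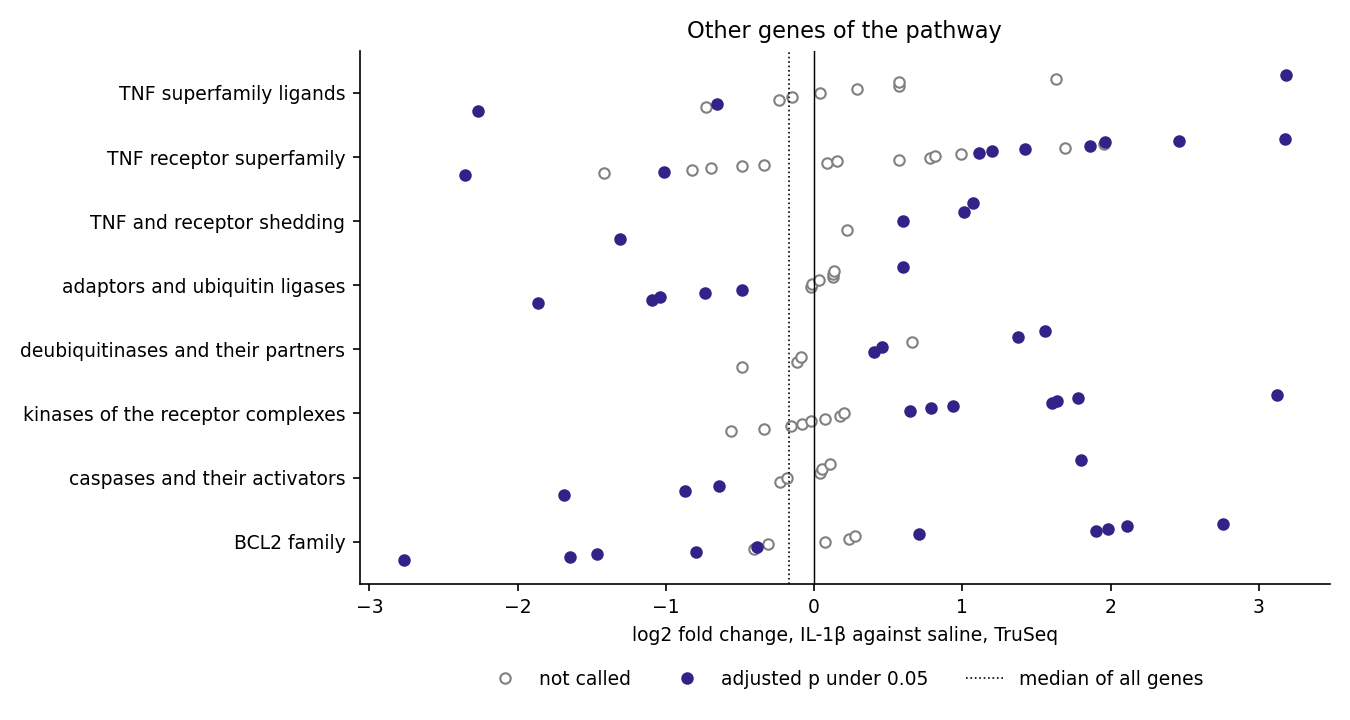
Log2 fold change of IL-1β against saline in TruSeq (horizontal axis) for the 97 listed genes of 8 pathway lists (rows), filled where called. The dotted line is the median of all genes at -0.17, and the called deubiquitinase and kinase genes all lie to its right, while other lists have called genes on both sides.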

How the data were processed

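Liver RNA of 6 mice was sequenced with 3 kits, giving 18 libraries and 1 table per kit. The deposited values are counts, in whole reads, which the authors made by aligning to mm9 with GSNAP, removing ribosomal reads, resampling to equal depth within a kit and counting per gene with the PORT pipeline, in sense for Pico and TruSeq and on both strands for V4. The tables were normalized separately, so each was fitted alone, with limma-voom, the test named in the study's methods, here on library totals (limma 3.58.1, R 4.3.3), over all listed genes, and p-values were adjusted by Benjamini-Hochberg. Responses were compared between kits by an interaction of kit and treatment. Alternatives used edgeR 4.0.16, DESeq2 1.42.0, TMM factors, a filter of 10 counts in 3 libraries, 1 fit of 18 libraries, a threshold of 0.01, each mouse left out, and the mouse as a block. Summaries used Python 3.11.15, numpy 2.4.6, pandas 2.3.3 and scipy 1.17.1. The scripts were tested on simulated data.

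The mouse pairs the libraries of different kits. Deviations from the group means over 8960 genes correlated at 0.0796 to 0.458 for the same mouse and at -0.360 to -0.0327 for different mice. No 2 replicates agreed within sampling noise. Genes were located in the GENCODE annotation of mm9, in which all listed identifiers were found. Promoters came from RefSeq on GRCm38.p6, all 10 members were matched, and no coordinate was carried between builds. Named genes are the members, per list at most the 2 highest and the 1 lowest called in TruSeq and apart in all 3 kits, and the 3 genes most like each member. The members and lists were chosen with earlier results of these data known. Some genes of the caspase list are not reported here by name.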

Additional observations from a re-analysis of the deposited data

Results flagged for a closer look

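Within a mouse, the log2 ratio of Traf2 in Pico to that in TruSeq was -0.89 in I9583, against -0.26 to 0.11 in the other 5 mice, a gap of 0.636 of the whole range, past the 95% limit of Dixon's test for 6 values. It rests on 33 counts in Pico and 193 in TruSeq. Among the 16 sets of 6 mice examined it was the only one past the limit, and chance passes it in about 1 of 20.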

How the results depend on the processing

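Fas and Tnfrsf1a kept their calls in all 3 kits, and Tnfrsf1b, Ripk1 and Cflar theirs in Pico and TruSeq, under every alternative run. At an adjusted p under 0.01 Pico called 1884 genes instead of 3179, V4 764 instead of 1986 and TruSeq 4081 instead of 6614. 1 fit of all 18 libraries called 4698 genes and 6 members in V4 and 4239 genes in TruSeq, where Traf2 (adjusted p = 0.09146) and Birc3 (0.05434) were not called, and in Pico it did not call Birc2 (0.2558), all by limma-voom. It called Tnfrsf1b, Traf2, Ripk1 and Cflar in V4 beside the 2 others. That fit had no term for the mouse, so the 3 libraries of a mouse counted as independent, and it pooled the variance of a gene over the kits. Its added V4 calls are therefore no further evidence. In V4 edgeR called 4 members and DESeq2 called 4, with Tnfrsf1b and Ripk1 added. The cause was not tested.

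For the difference in response, DESeq2 called 4 genes for Pico against TruSeq, 62 for V4 against TruSeq and 14 for Pico against V4, with 0 in limma-voom. With the mouse as a replicate block 1 gene, no member, was called between Pico and TruSeq, and the block changed no other call. It turned the difference of Pico and V4 to 0.0896 in Birc2 and 0.0144 in Cflar, and that of Birc2 was 0.0197 in edgeR and 0.0152 in DESeq2 (main values -0.04 and -0.01).

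Leaving out each mouse in turn gave 1765 to 2603 genes and 5 to 6 members called in Pico, 908 to 2093 and 2 to 3 in V4, and 5114 to 5606 and 5 to 8 in TruSeq. Differences in response were called in 0 genes for Pico against TruSeq, in 0 to 59 for V4 against TruSeq and in 0 to 39 for Pico against V4, the 59 and the 39 both without U9576. Values that changed sign, none of them called, ranged from -0.18 to 0.25 in Pico Traf2 and from -0.52 to 0.16 in V4 Birc3. Between Pico and TruSeq the difference ranged from -0.19 to 0.60 in Fas, -0.21 to 0.074 in Birc2 and -0.13 to 0.0092 in Cflar. Between V4 and TruSeq it ranged from -0.10 to 0.35 in Tnfrsf1b, -0.094 to 0.16 in Traf2, -0.51 to 0.32 in Birc2 and -0.24 to 0.20 in Cflar. Between Pico and V4 it ranged from -0.58 to 0.45 in Fas, -0.49 to 0.46 in Birc2 and -0.20 to 0.20 in Cflar.

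Depth limits Tnf and Traf1 in every kit.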
